A study of Mus musculus with 36 samples.

Results

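Supporting cells of XY fetal mouse gonads were compared between 12.5 and 11.5 days post coitum (dpc), using 6 of the 36 arrays of the series, 3 at each stage. The members were taken by the array labels alone, as the supporting-cell arrays of XY gonads at those stages, and no measured value entered the choice. The series holds 12 groups of 3 arrays, covering supporting cells and germ cells of each sex at these stages and at 13.5 dpc. The XY supporting cells of 11.5 dpc came from fetuses carrying Tg(Sry-EGFP)92Ei, a transgene in which Sry regulatory sequence drives green fluorescent protein, bred with CD-1. Those of 12.5 dpc came from fetuses carrying Tg(Sox9-cre/ERT2)1Msan/J, in which Sox9 regulatory sequence drives an inducible Cre recombinase, bred with C57BL/6. The labels do not name the fluorescent protein that marked the Sox9 cells. Stage, reporter line and strain therefore change together, and their parts in any difference below cannot be told apart. XX supporting cells, which carried the Sry-EGFP line with CD-1 at both stages, had no such change and were used as a comparison over the same day (3 arrays at 11.5 and 3 at 12.5 dpc). Gonads of a sex were pooled before sorting. Nothing in the labels ties the 3 arrays of a group to separate pools, so the p-values measure array-to-array spread that may be technical.

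Supporting cells are the somatic lineage that surrounds the germ cells and becomes Sertoli cells in the testis or granulosa cells in the ovary. In the XY gonad a brief pulse of SRY switches on SOX9, which is then held up by its own activity, by FGF9 and by prostaglandin D2 while WNT4 and RSPO1 signalling is kept down. The new Sertoli cells divide, wrap the germ cells into cords, lay down a basement membrane and secrete AMH, desert hedgehog and other signals that direct the neighbouring cells. XX supporting cells at these stages become pregranulosa cells and withdraw from the cell cycle.

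Values are log2 RMA expression levels, and a difference of 1 is a 2-fold change. Differences are given with the standard error (SE) from limma, fitted to all 36 arrays with 24 residual degrees of freedom, and padj is limma's p-value adjusted by Benjamini and Hochberg over 19938 genes. A gene passed the test at padj under 0.05. Medians of the 6 arrays lay between 6.71 and 6.99. Pairs of arrays correlated at 0.978 to 0.992 across genes within the 11.5 dpc group and at 0.967 to 0.980 within the 12.5 dpc group. The table rows of each array fall into interleaved sets with their own scale. The medians of an array's sets lay at most 0.07 apart in the 11.5 dpc arrays and 0.34 to 0.73 apart in those of 12.5 dpc. Results are therefore also given with the row sets aligned to a common median and scale. Eif2s3y, a Y-linked translation factor, lay at 8.82 or higher in the 6 XY arrays and at 4.62 or lower in the XX arrays of these stages, and Xist, the RNA that silences an X chromosome in female cells, lay at 6.85 or lower in the former and at 11.11 or higher in the latter. The labelled sex thus matched in all 12 arrays.

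Between 11.5 and 12.5 dpc, 1937 genes rose and 193 fell in XY supporting cells, which is 10.7% of the genes tested, 9.72% higher and 0.968% lower. The arrays of the stages did not overlap for 2059 of these 2130 genes. Over all genes, 26.9% lay wholly higher and 3.80% wholly lower at 12.5 dpc. The median difference of all genes was 0.21, so a small positive difference is no more than the shift of the whole table. With the row sets aligned that median was 0.04, and 2315 genes rose and 905 fell (16.2% of all, 11.6% higher and 4.54% lower). The 12.5 dpc arrays split the genes into 9 classes by row set. The share called higher ranged from 3.38 to 21.5% between these classes as deposited and from 10.6 to 12.5% after alignment. In both versions 1534 genes were higher and 192 lower, 81.0% of the deposited calls and 53.6% of the aligned calls, and 0 genes were called in opposite directions. The share of calls that were higher was 90.9% as deposited, 71.9% aligned, 67.4% with arrays centred and 52.3% after quantile normalisation. Without array 3 of 11.5 dpc the count was 1268 genes, and without array 1 of 12.5 dpc it was 1257. Of 128 genes named below or in the closing section that passed the test, 83 kept the call in every setting that gave them a value and 40 lost it when at least 1 of the XY arrays was left out. Quantile normalisation ended the call of 37 of them, centring of 26 and alignment of 10. Map2k6, Insr, Mro, Mcm5, Rrm2, Ptch1, Nid1, Col4a1 and Hk2 were lost among these 3 scalings only after quantile normalisation.

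Sry fell while Sox9 stayed high. Sry, the Y-linked switch of testis determination, stood at 11.84, 11.74 and 11.91 at 11.5 dpc and at 8.78, 8.15 and 8.75 at 12.5 dpc. Every array of the later stage lay far below every array of the earlier, a difference of -3.27 (SE 0.21, padj = 3.22e-14). At 12.5 dpc 2 of the 3 arrays still lay above every XX supporting cell array, which read 7.74 to 8.25, and the XX cells carry the Sry-EGFP transgene as well. Sox9, the target of SRY that drives the Sertoli programme, read 11.75, 11.70 and 11.61 at 11.5 dpc and 11.84, 11.36 and 11.34 at 12.5 dpc. These ranges overlapped and the difference of -0.17 (SE 0.23, padj = 0.699) did not pass the test, although with the row sets aligned it was -0.54 (padj = 0.0128). XX supporting cells read 8.20 to 8.89 for Sox9. The cells of 12.5 dpc were sorted by a Sox9 driven transgene, and the part of the sort in this level was not tested.

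Of 24 measured genes of testis determination, 9 rose and 5 fell, against 9.72% and 0.968% of all genes, and their median difference of 0.24 was close to the 0.21 of all genes. The largest rise was that of Ptgds, the prostaglandin D2 synthase that helps keep SOX9 active. It read 7.99, 8.39 and 8.92 at 11.5 dpc and 10.19, 10.78 and 10.43 at 12.5 dpc, a difference of 2.03 (SE 0.20, padj = 2.2e-09). The related factors Sox10 and Sox8, which can act alongside SOX9, rose by 0.83 (padj = 0.00251) and 0.67 (padj = 0.0414). Dmrt1, which holds the male identity of Sertoli cells later in life, rose by 0.81 (padj = 0.0324). Insr, the insulin receptor, rose by 1.23 (padj = 0.00769), with 1 low array, 7.79, among the 11.5 dpc values. Without that array, array 3, the difference was 0.73 (padj = 0.164). The kinase genes Map2k6 and Map3k4, which act upstream of p38 in Sry activation, rose by 0.98 (padj = 0.00408) and 0.79 (padj = 0.0118). Map2k6 also rose in XX cells, by 1.68 (padj = 1.04e-05), and its changes in the sexes did not differ past the test (padj = 0.434). The Polycomb gene Cbx2 rose by 0.71 (padj = 0.0173) and Zfp275 by 0.82 (padj = 0.0104). Leaving out single XY arrays kept the call of Sox8 in 1 of 6 fits, of Dmrt1 in 2 and of Map3k4, Cbx2 and Zfp275 in 4. With arrays centred none of these 5 genes passed. The XY change differed from the XX change past the test for Ptgds and Dmrt1 and not for the other 7 rises.

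Among the falls, Gadd45g, which acts on the p38 pathway before Sry, read 9.002, 8.75 and 8.48 and then 7.85, 7.54 and 7.40, a fall of 1.15 (padj = 0.00304). It also fell in XX cells, by 1.70 (padj = 7.6e-05). Fgfr2, the receptor through which FGF9 acts in these cells, fell by 1.06 (SE 0.27, padj = 0.00648), from between 7.73 and 8.002 at 11.5 dpc to between 6.39 and 7.002 at 12.5 dpc, and without array 2 of 12.5 dpc it was -0.85 (padj = 0.0536). Its XX difference was 0.69 (padj = 0.3) and the difference between the sexes passed the test (padj = 0.00423). Fgf9 itself read 10.27 to 10.51 and then 9.74 to 10.27, a difference of -0.45 (padj = 0.103). It passed as a fall with the row sets aligned (-0.52, padj = 0.0256), with arrays centred (-0.66, padj = 0.00546) and after quantile normalisation (-0.81, padj = 0.000308). From 12.5 to 13.5 dpc, within the Sox9 line, it fell by 1.11 (padj = 0.000722).

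Transcription factors of the bipotential gonad divided into those that fell and those that did not pass the test. Lhx9, a LIM homeobox factor needed to form the gonad, read 9.98, 9.65 and 8.95 at 11.5 dpc and 6.83, 6.87 and 6.68 at 12.5 dpc, a difference of -2.73 (SE 0.52, padj = 0.000357). Emx2, another homeobox factor of the early gonad, read 7.98, 7.97 and 7.50 and then 5.92, 5.56 and 5.62, a difference of -2.12 (SE 0.36, padj = 6.99e-05). In XX cells Lhx9 stayed between 10.47 and 11.31 and Emx2 between 8.73 and 8.95 over the same day, so in both genes the XY cells started below the XX cells and moved further away. The sex difference of the change passed the test for Emx2 (-2.18, padj = 0.00922) and not for Lhx9 (-2.43, padj = 0.0748). Nr5a1, Gata4 and Wt1, which are needed in both sexes, had differences of 0.31 (SE 0.31), -0.10 (SE 0.37) and -0.19 (SE 0.45) with padj of 0.586, 0.906 and 0.841. Zfpm2, the GATA4 cofactor, and Nr0b1, an orphan nuclear receptor, had differences of -0.51 (padj = 0.374) and -0.57 (padj = 0.499). Each of these 2 passed as a fall in 1 of 10 alternative fits, that with array weights, and the stages did not overlap for Zfpm2. Wt1 and Nr0b1 passed as falls when only the 18 supporting cell arrays were fitted with row sets aligned. That setting was chosen after seeing the data.

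**Figure D1:**
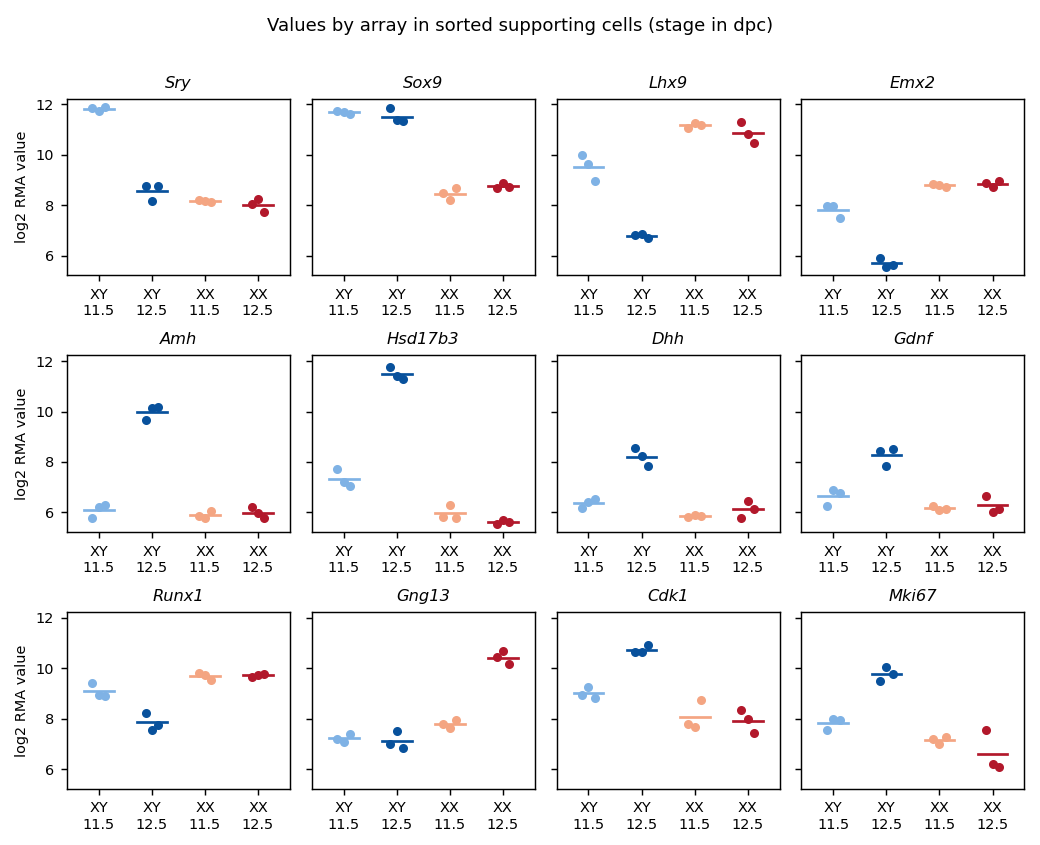
Log2 RMA values (vertical axis) of 12 genes in each array of XY and XX supporting cells at 11.5 and 12.5 dpc (horizontal axis), with points for the 3 arrays of a group and a line at their mean. Sry drops towards the XX values, Sox9 stays high, Amh and Hsd17b3 are highest in XY cells of 12.5 dpc among these 4 groups, and Cdk1 and Mki67 rise in XY cells.

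Genes known as Sertoli cell products moved up together. Of 35 measured members 25 rose and 0 fell, against 9.72% of all genes higher, and their median difference was 1.04. With the row sets aligned the median was 0.86, and 26 rose and 1 fell, against 11.6% and 4.54% of all genes. In XX cells 1 of the 35 rose, against 1.05% of all genes, and the median of the list was 0.11. For 17 members the XY change exceeded the XX change in the test of the difference, against 1.72% of all genes. Hsd17b3, which makes testosterone from androstenedione, read 7.72, 7.22 and 7.05 at 11.5 dpc and 11.78, 11.42 and 11.31 at 12.5 dpc, a difference of 4.17 (SE 0.20, padj = 5.5e-17) and the largest rise of any gene tested. Amh, the hormone that removes the Mullerian ducts, read 5.78, 6.20 and 6.30 and then 9.66, 10.12 and 10.17, a difference of 3.89 (SE 0.21, padj = 4.64e-16). The 11.5 dpc Amh values overlapped those of XX cells, 5.76 to 6.23, and whether they lay above background was not tested, whereas Hsd17b3 at 11.5 dpc was already above all 6 XX arrays, which read 5.54 to 6.28. From 12.5 to 13.5 dpc Amh and Hsd17b3 differed by -0.15 (padj = 0.829) and 0.14 (padj = 0.834).

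Other members of the list followed, some of them secreted and some inside the cell. Defb19, a beta-defensin, rose by 3.85 (padj = 5.28e-11), Fgf13 by 3.07 (padj = 1.92e-10), and Tesc, a calcium-binding protein, by 2.95 (padj = 3.38e-11). Clu, the secreted chaperone clusterin, rose by 2.85 (padj = 4.99e-10), Vnn1, a pantetheinase, by 2.75 (padj = 4.7e-11) and the receptor gene Erbb3 by 2.30 (padj = 1.66e-07). Dhh, the hedgehog ligand that instructs Leydig cell precursors, read 6.18, 6.39 and 6.55 and then 8.55, 8.22 and 7.84, a rise of 1.83 (padj = 3.29e-07). Gdnf, a growth factor for spermatogonial stem cells, read 6.24, 6.89 and 6.78 and then 8.43, 7.83 and 8.52, a rise of 1.62 (padj = 1.69e-06). In both genes the stages did not overlap, and the XX differences were 0.24 (padj = 0.952) and 0.12 (padj = 0.993). The cystatin genes Cst9 and Cst12 rose by 1.76 (padj = 0.00669) and 1.73 (padj = 0.0236), the latter kept in 2 of the 6 fits without an XY array and lost with arrays centred, and Etd rose by 1.56 (padj = 0.00016). Gstm6, a glutathione transferase, rose by 1.91 (padj = 0.000366) and also in XX cells, by 2.17 (padj = 0.000254).

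For a few products no clear difference was detected. Aard read 11.11 to 11.29 at 11.5 dpc and 11.32 to 11.71 at 12.5 dpc (difference 0.33, padj = 0.505). Cbln4 read 9.88 to 10.40 and then 10.21 to 10.71 (0.29, padj = 0.45). Pdgfa, a platelet-derived growth factor ligand, had a difference of 0.56 (padj = 0.179), which passed with the row sets aligned (0.58, padj = 0.00344). Mro rose by 0.86 (padj = 0.00964), and Mmd2 by 0.65 (padj = 0.0497), with arrays that overlapped and a call kept in 2 of 6 fits without an XY array.

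The region before the start site was read for the genes whose RefSeq promoter was in the reference table (build GRCm38.p6), taking 250 bases upstream. The core letters searched on both strands were AACAAT for SOX factors such as SRY and SOX9. For the nuclear receptor NR5A1 they were AAGGTCA. For GATA factors such as GATA4 they were AGATAA. Among 22 Sertoli product genes with a promoter, 1 held the SOX core (Cbln4), 1 the NR5A1 core (Col9a1) and 1 the GATA core (Gdnf). Over all 27025 genes of the table the shares were 10.9%, 4.70% and 11.4%. Among 15 testis determination genes, 2 held the SOX core (Map2k6 and Zfp275), 1 the NR5A1 core (Igf1r) and 2 the GATA core (Fgf9 and Map2k6). The sequences of the largest riser and of 2 genes with a match are shown 5′ to 3′ on the strand of the gene, with the matched letters in capitals. The Col9a1 match is the reverse complement. The Gdnf and Col9a1 sequences are each 1 of 2 listed starts, and the other start of each gene lacks the match. The Hsd17b3 sequence holds none of the searched letters. A match is a description of the letters and not a binding site.
Hsd17b3 (chr13:64089202-64089451, minus strand): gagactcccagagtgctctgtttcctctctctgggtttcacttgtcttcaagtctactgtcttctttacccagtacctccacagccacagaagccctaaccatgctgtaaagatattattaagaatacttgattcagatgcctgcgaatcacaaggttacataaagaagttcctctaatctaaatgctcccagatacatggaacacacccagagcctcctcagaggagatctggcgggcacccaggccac
Gdnf (chr15:7813477-7813726, plus strand): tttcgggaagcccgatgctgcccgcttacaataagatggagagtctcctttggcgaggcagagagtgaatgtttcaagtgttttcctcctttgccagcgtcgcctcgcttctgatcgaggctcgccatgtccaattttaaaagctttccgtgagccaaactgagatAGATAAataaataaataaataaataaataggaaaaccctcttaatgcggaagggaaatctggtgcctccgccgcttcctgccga
Col9a1 (chr1:24177360-24177609, plus strand): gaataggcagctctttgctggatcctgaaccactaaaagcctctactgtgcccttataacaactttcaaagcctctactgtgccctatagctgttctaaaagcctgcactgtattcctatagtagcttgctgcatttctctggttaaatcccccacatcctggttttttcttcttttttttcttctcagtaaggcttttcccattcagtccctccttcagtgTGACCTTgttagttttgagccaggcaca

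Pregranulosa genes did not rise in XY cells. Of 23 measured members 0 rose and 1 fell, against 9.72% and 0.968% of all genes, and the median difference was -0.01. With the row sets aligned the median was -0.21 and 5 fell, against 4.54% of all genes. In XX cells 4 members rose, against 1.05% of all genes, and the median of the list was 0.29. With only the 18 supporting cell arrays fitted, 3 members rose in XY cells, Foxl2 and Lgr5 among them, and 4 fell. In that fit 3583 of all 19938 genes rose and 378 fell. The member that fell in the fit to all arrays was Runx1, a factor of early supporting cells that stays on in the ovary. It read 9.42, 8.95 and 8.91 at 11.5 dpc and 8.24, 7.56 and 7.75 at 12.5 dpc, a difference of -1.24 (SE 0.39, padj = 0.0332). The stages did not overlap, but the call was kept in only 1 of the 6 fits without an XY array. Over these fits the difference ran from -1.08 to -1.44 and padj from 0.0435 to 0.141. Without array 3 of the XX germ cells of 12.5 dpc, which stands apart from its group and enters the shared spread, padj was 2.6e-05. In XX cells Runx1 stayed between 9.55 and 9.80. Gng13, a G protein subunit, read 7.07 to 7.37 and then 6.84 to 7.49 in XY cells, and rose in XX cells by 2.64 (padj = 2.05e-07). As deposited, it was the only list member whose sex difference of change passed (-2.75, padj = 4.08e-05). With the row sets aligned those of the list members Rspo1 (-1.30, padj = 0.0283) and Rnf43 (-0.64, padj = 0.0039) passed as well. Rspo1, the secreted amplifier of WNT signalling, had an XY difference of -0.86 (SE 0.30, padj = 0.0644), Fst, the activin antagonist follistatin, of -1.18 (padj = 0.108), and Bmp2 of -0.94 (padj = 0.209). Aligned, Rspo1 and Bmp2 passed (padj = 0.0285 and 0.0397) and Fst did not (padj = 0.0942). The stages did not overlap for Fst, and it passed as a fall in 4 of 10 alternative fits. Among these were the fit to only the 18 supporting cell arrays and that without the XX germ cell array. Wnt4, the ovarian WNT ligand, and Foxl2, the granulosa forkhead factor, differed by 0.12 (padj = 0.861) and 0.46 (padj = 0.209).

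Of 12 WNT target genes 0 passed the limma test in either direction as deposited. An unadjusted p under 0.05 was found for 1 of them, against 4781 of all 19938 genes. With the row sets aligned 0 rose and 2 fell, against 11.6% and 4.54% of all genes. The median difference of the list was 0.15 in XY cells and 0.33 in XX cells, where 2 rose, against 1.05% of all genes. Lgr5 and Rnf43 of this list and Irx3 of the pregranulosa list, which rose in XX cells by 1.52 (padj = 0.0166), 0.79 (padj = 0.0385) and 1.08 (padj = 0.0364), had XY differences of 0.65 (padj = 0.272), 0.14 (padj = 0.742) and -0.09 (padj = 0.885). As deposited none of these 3 passed the test of the difference between the sexes (padj = 0.686, 0.399 and 0.14), and with the row sets aligned Rnf43 passed it (padj = 0.0039).

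Signals between cell types changed in a few members each. In the Hedgehog and PDGF list of 15 genes 3 rose and 2 fell, against 9.72% and 0.968% of all genes, with a median of 0.34 against 0.21. Beside the ligand Dhh, the hedgehog receptor Ptch1, itself a target of the pathway, read 9.63 to 9.84 and then 10.17 to 11.07, a rise of 1.00 (SE 0.23, padj = 0.00312). The mediator Gli3 rose by 0.77 (padj = 0.0081; aligned 0.35, padj = 0.109), and the target Gli1 differed by 0.37 (padj = 0.321). Pdgfra, the PDGF receptor of interstitial cells, read 9.85, 9.54 and 9.55 and then 7.87, 7.10 and 7.87, a fall of 2.03 (padj = 0.00517). The ligand Pdgfc fell by 1.49 (padj = 0.0228), a call kept in 2 of 6 fits without an XY array.

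Of 12 FGF target genes 4 rose and 0 fell, against 9.72% of all genes higher. They were the feedback inhibitors Spry4 (1.05, padj = 0.000236), Dusp6 (1.10, padj = 0.024) and Spry2 (0.76, padj = 0.0257) and the immediate early factor Egr1 (1.39, padj = 0.0219). Only Spry4 of these passed under alignment (0.81, padj = 0.000509), under centring and after quantile normalisation. In the activin, inhibin and AMH list of 15 genes, Amh, the inhibin subunits Inha (1.04, padj = 0.0272) and Inhbb (0.70, padj = 0.0246) and the receptor Acvr1b (0.68, padj = 0.0145) rose and 0 fell, against the same 9.72%. The sex difference of the change passed for Inha (1.62, padj = 0.0427) and Inhbb (1.12, padj = 0.0334). Their XY calls were kept in 2 and 3 of the 6 fits without an XY array, and with arrays centred Inha, Inhbb and Acvr1b did not pass.

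In the retinoic acid list of 18 genes, 2 rose and 1 fell, against 9.72% and 0.968% of all genes, so the share higher was close to that of all genes. Cyp26b1, the enzyme that breaks down retinoic acid in the fetal testis, read 8.35, 7.71 and 7.83 and then 8.91, 8.02 and 8.996, a difference of 0.68 (SE 0.22, padj = 0.0399) with arrays that overlapped. It did not pass with arrays centred and was kept in 2 of 6 fits without an XY array. The receptor Rara rose by 1.07 (padj = 0.000515). Dhrs3, a retinaldehyde reductase, read 9.39, 9.06 and 9.72 and then 7.50, 6.92 and 8.08, a fall of 1.89 (padj = 0.000798). Aldh1a1, which makes retinoic acid, and Stra6, a retinol transporter, rose in XX cells by 2.10 (padj = 0.00133) and 1.04 (padj = 0.000605). In XY cells they differed by 1.06 (padj = 0.0838) and -0.02 (padj = 0.955). Aldh1a1 lay wholly higher at 12.5 dpc in XY cells, as did 26.9% of all genes. It passed as a rise in 4 of 10 alternative fits, among them that to only the 18 supporting cell arrays and that with array weights. The sex difference of the change passed for Stra6 (padj = 0.0167) and not for Aldh1a1 (padj = 0.605).

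Matrix and junction genes rose in part. Of 24 basement membrane and matrix genes 8 rose and 0 fell, against 9.72% of all genes higher. The largest rises were those of Col9a3, a collagen IX chain, from 8.19, 8.36 and 8.70 to 10.58, 9.75 and 10.00 (1.69, padj = 3.46e-07), Nid1, the nidogen that links laminin to collagen IV (1.30, padj = 0.0102), and Col18a1 (1.28, padj = 8.75e-05). The other collagen IX chains Col9a2 and Col9a1 rose by 0.93 (padj = 0.00124) and 0.87 (padj = 0.00358). The collagen IV chains Col4a1 and Col4a2, the network of the basement membrane, rose by 0.91 (padj = 0.00581) and 0.61 (padj = 0.0413), and the laminin chain Lama1 by 0.72 (padj = 0.0284). Col4a2 and Lama1 were each kept in 1 of 6 fits without an XY array and Nid1 in 3. With the row sets aligned Lama1 did not pass (padj = 0.0823), and it also rose in XX cells (0.96, padj = 0.0135).

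Of 23 adhesion and junction genes 5 rose and 1 fell, against 9.72% and 0.968% of all genes. Gjb2, a gap junction connexin, read 6.29, 6.98 and 5.99 and then 9.15, 8.79 and 9.58, a rise of 2.76 (padj = 1.65e-10). Jam2, a junctional adhesion molecule, rose by 1.76 (padj = 0.00144), and Cldn11, the claudin of the later blood-testis barrier, by 1.16 (padj = 0.000193). Cdh3 (0.72, padj = 0.0485) and Tjp1 (0.71, padj = 0.0308) rose as deposited and did not pass with the row sets aligned (padj = 0.0805 and 0.138). Tjp1 also rose in XX cells (1.04, padj = 0.00599). Cdh11, a cadherin of mesenchyme, fell by 1.89 (padj = 0.0264), a call kept in 2 of 6 fits without an XY array. Cdh2, the cadherin that rose in XX cells by 1.47 (padj = 1.09e-05), differed by 0.40 in XY cells (padj = 0.232), and that sex difference passed (padj = 0.0342).

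Genes of mitosis formed the most uniform group. Every measured member of the mitotic list, 23 of 23, rose in XY cells, against 9.72% of all genes, with a median difference of 1.69 and a range from 1.15 to 2.50. All 23 also rose past the test aligned (median 1.48), centred and quantile normalised, against 2315, 989 and 739 of all 19938 genes. In XX cells 0 rose and 2 fell, against 1.05% and 0.431% of all genes. The 2 were Cenpe (-1.09, padj = 0.0157) and Birc5 (-0.84, padj = 0.0424), and the median of the list was -0.41. The XY change exceeded the XX change past the test in 22 of the 23, against 1.72% of all genes. The exception was Ube2c (1.00, padj = 0.282). Mki67, the proliferation marker Ki-67, read 7.57, 7.98 and 7.94 at 11.5 dpc and 9.50, 10.06 and 9.76 at 12.5 dpc, a rise of 1.94 (SE 0.27, padj = 2.88e-06). Cdk1, the kinase that starts mitosis, read 8.93, 9.27 and 8.82 and then 10.63, 10.65 and 10.94, a rise of 1.73 (SE 0.26, padj = 9.81e-06). The largest rises were those of the cyclin Ccnb2 (2.50, padj = 3.48e-07), the spindle checkpoint kinase Bub1b (2.31, padj = 2.12e-08), the kinetochore protein Cenpf (2.28, padj = 6.55e-07), the spindle factor Tpx2 (2.22, padj = 1.53e-07) and the spindle kinase Aurka (1.97, padj = 4.25e-06). The median level of the list lay between 7.67 and 8.10 in the 11.5 dpc XY arrays and between 9.53 and 9.88 in those of 12.5 dpc, against 6.53 to 7.37 in the XX arrays of both stages. Whether the reporter line and the sort contribute to this difference was not tested. From 12.5 to 13.5 dpc, within the Sox9 line, Mki67 and Cdk1 differed by -0.34 (padj = 0.625) and -0.42 (padj = 0.527).

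**Figure D2:**
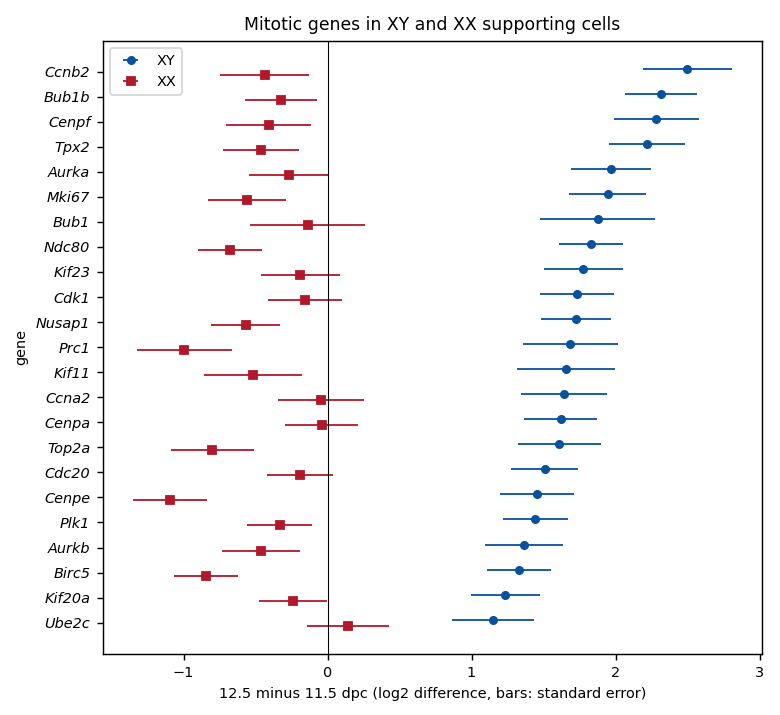
Difference between 12.5 and 11.5 dpc (horizontal axis, log2, bars are standard errors) for the 23 measured mitotic genes (vertical axis) in XY cells (circles) and XX cells (squares). All XY differences lie between 1.15 and 2.50, while the XX differences lie near or below 0.

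Many promoters of mitotic genes carry CCAAT boxes, bound by NF-Y, and the CHR element, through which MuvB complexes repress or activate them in the cycle. The letters CCAAT and TTTGAA were searched on both strands in 250 bases upstream of the start, a search chosen after the values of these genes were seen. CCAAT was present in 16 of 19 mitotic genes with a promoter in the table (84.2%), against 37.5% of all genes, and TTTGAA in 8 (42.1%), against 18.3%. The same 8 genes held both sets of letters, against 7.34% of all genes. The sequences before Cdk1, Ccnb2 and Aurka, kinase and cyclin genes described above, show the letters in capitals. Letters on the other strand appear as their reverse complement, and the Aurka sequence holds only the CCAAT box.
Cdk1 (chr10:69352913-69353162, minus strand): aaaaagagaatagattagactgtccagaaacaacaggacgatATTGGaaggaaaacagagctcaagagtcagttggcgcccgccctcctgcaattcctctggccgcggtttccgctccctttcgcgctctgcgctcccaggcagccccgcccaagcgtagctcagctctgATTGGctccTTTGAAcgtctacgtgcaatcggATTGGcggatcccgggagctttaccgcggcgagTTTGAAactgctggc
Ccnb2 (chr9:70421555-70421804, minus strand): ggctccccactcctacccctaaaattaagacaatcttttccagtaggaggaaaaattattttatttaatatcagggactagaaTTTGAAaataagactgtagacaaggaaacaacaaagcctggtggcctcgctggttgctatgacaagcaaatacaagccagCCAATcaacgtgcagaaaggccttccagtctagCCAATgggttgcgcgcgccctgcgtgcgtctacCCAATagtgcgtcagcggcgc
Aurka (chr2:172370571-172370820, minus strand): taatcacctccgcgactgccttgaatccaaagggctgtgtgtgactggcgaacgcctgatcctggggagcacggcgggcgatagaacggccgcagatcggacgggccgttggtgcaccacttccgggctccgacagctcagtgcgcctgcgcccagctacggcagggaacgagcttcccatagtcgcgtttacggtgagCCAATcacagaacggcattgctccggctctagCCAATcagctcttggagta

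DNA replication genes rose less evenly. Of 25 measured, 10 rose and 0 fell, against 9.72% of all genes higher, with a median of 0.62. With the row sets aligned 12 rose, against 2315 of all 19938 genes. When centred and quantile normalised 4 and 2 rose, against 989 and 739 of all genes. The largest rises were those of Rfc4, a subunit of the clamp loader (1.60, padj = 7.34e-05), Mcm5, a part of the replicative helicase (1.06, padj = 0.00363), and Rrm2, which makes deoxynucleotides (1.04, padj = 0.00369). As deposited, Rfc4 was the only member whose sex difference of change passed (1.42, padj = 0.0347). With the row sets aligned that of Rfc4 did not pass (1.23, padj = 0.0594), and that of Mcm5 did (1.02, padj = 0.0218). The G1 cyclin Ccne1 differed by -0.13 (padj = 0.85). Of 12 cyclin-dependent kinase inhibitors and related genes, 1 rose, close to the share of all genes, the pocket protein gene Rbl1 (0.84, padj = 0.00774), and it did not pass with arrays centred.

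Of 19 cholesterol synthesis genes 1 rose and 3 fell, against 9.72% and 0.968% of all genes, with a median of 0.11 against 0.21. Aligned 5 of them fell, and 6 after quantile normalisation, against 905 and 675 of all 19938 genes. Idi1, an isomerase of the pathway, fell by 1.26 (padj = 0.00443) and in XX cells by 2.19 (padj = 1.09e-05). Sc5d fell by 1.16 (padj = 0.037) and Insig1, a sterol sensor partner, by 0.98 (padj = 0.0192), and Nsdhl rose by 0.88 (padj = 0.0389). Each of the last 3 was kept in at most 2 of 6 fits without an XY array. Of 20 glycolysis and glycogen genes only Hk2, a hexokinase (1.03, padj = 0.00614), and Pgam1 (0.69, padj = 0.0243; aligned 0.24, padj = 0.062) rose and 0 fell, a share close to the 9.72% of all genes higher.

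The 15 largest rises without overlap between stages held 6 genes of the lists, Hsd17b3, Amh, Defb19, Fgf13, Tesc and Egr2, and 9 outside them. Cstdc1, a cystatin domain gene, read 7.88, 8.49 and 6.54 at 11.5 dpc and 12.21, 11.74 and 11.15 at 12.5 dpc (4.06, padj = 8.28e-12). Kazald1, which encodes a secreted protein related to IGF-binding proteins, read 5.75, 5.90 and 5.24 and then 9.57, 9.46 and 9.55 (3.90, padj = 1.46e-15). Next came the collagen Col14a1 (3.22, padj = 3.76e-12), Tmem184a (3.21, padj = 2.63e-09) and the protease-like gene Prss35 (3.196, padj = 7.48e-08). They were followed by the secreted WNT modulator Sfrp4 (2.98, padj = 2.78e-10), Atxn1 (2.94, padj = 0.0305), the matrix protein gene Tinagl1 (2.91, padj = 1.4e-14) and the troponin gene Tnnc1 (2.90, padj = 3.43e-09). Atxn1 rested on 1 low array of 11.5 dpc, 5.61 against 8.20 and 8.18, had an XX difference of 2.67, and did not pass aligned (padj = 0.0643). Of the other 8 genes outside the lists, all had a larger XY than XX change past the test.

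The 15 largest falls included Sry and Lhx9 and 13 others. Dock4, an activator of small GTPases, read 10.98, 10.74 and 10.52 and then 6.76, 6.48 and 7.32 (-3.90, padj = 1.33e-07). The transcription factor subunit gene Taf7l, on the X chromosome, read 9.53, 9.59 and 8.83 and then 5.43, 5.53 and 5.93 (-3.68, padj = 2.41e-10). The imprinted zinc finger gene Zim1 fell by 3.42 (padj = 3.89e-05), and E330013P04Rik (-3.28, padj = 0.000261) and the interferon-induced membrane protein gene Ifitm3 (-3.26, padj = 1.45e-10) were next. Sulf1, a sulfatase that trims heparan sulfate, fell by 3.19 (padj = 4.36e-05), from between 11.07 and 11.29 to between 7.62 and 8.38. Cntnap5a (-3.03), Sprr2d (-2.89), the transglutaminase Tgm3 (-2.87), the EGF receptor ligand Ereg (-2.81), Nup62cl (-2.74), the growth factor Igf1 (-2.71) and 2210407C18Rik (-2.68) completed the group, each with padj of 6.77e-05 or lower.

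Over the same day 209 genes rose and 86 fell in XX supporting cells, 1.48% of the genes tested (1.05% higher and 0.431% lower). That count rests on few arrays, since it was 177 and 173 without array 2 or 3 of 11.5 dpc and 176 and 192 without array 1 or 2 of 12.5 dpc. Of the calls, 36 rose and 36 fell in both sexes, 3.38% of the XY calls and 24.4% of the XX calls, and 18 were called in opposite directions, 12 of them higher in XY. The stage change differed between the sexes in 454 genes (2.28%), with the XY change above the XX change in 342 (1.72%) and below it in 112 (0.562%). Of the genes that rose in XY cells, 323 had an XY change above the XX change past this test, and of those that fell, 53 had an XY change below it.

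Among genes past both the XY test and the test of the sex difference, the largest excess of the XY change was that of Hsd17b3 (4.50, padj = 3.21e-13). It was followed by the histone gene H2bc4 (4.001, padj = 0.000105), Robo1 (3.90, padj = 1.36e-09), Cstdc1 (3.88), Amh (3.81), the mitotic kinesin gene Kif15 (3.43, padj = 2.24e-08), Tnnc1 (3.39) and Sel1l3 (3.34). Robo1, the receptor of the guidance cue SLIT, moved in opposite directions. It read 10.68, 10.56 and 10.28 and then 12.30, 11.64 and 11.99 in XY cells (1.47, padj = 5.5e-05), and 9.73 to 9.77 and then 7.15 to 7.49 in XX cells (-2.43, padj = 2.4e-08). From 12.5 to 13.5 dpc it fell in XY cells by 1.34 (padj = 0.00397). The largest excess of the XX change was in Dock4 (-3.71, padj = 0.000311), Sulf1 (-3.59), Ifitm3 (-3.36), the small nucleolar RNA gene Snora75 (-3.34, padj = 8.39e-05), the matrix genes Hmcn1 (-3.33, padj = 1.49e-06) and Col12a1 (-3.18, padj = 0.000788), Sry (-3.12) and the microRNA gene Mir18 (-3.02, padj = 3.25e-05).

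**Figure D3:**
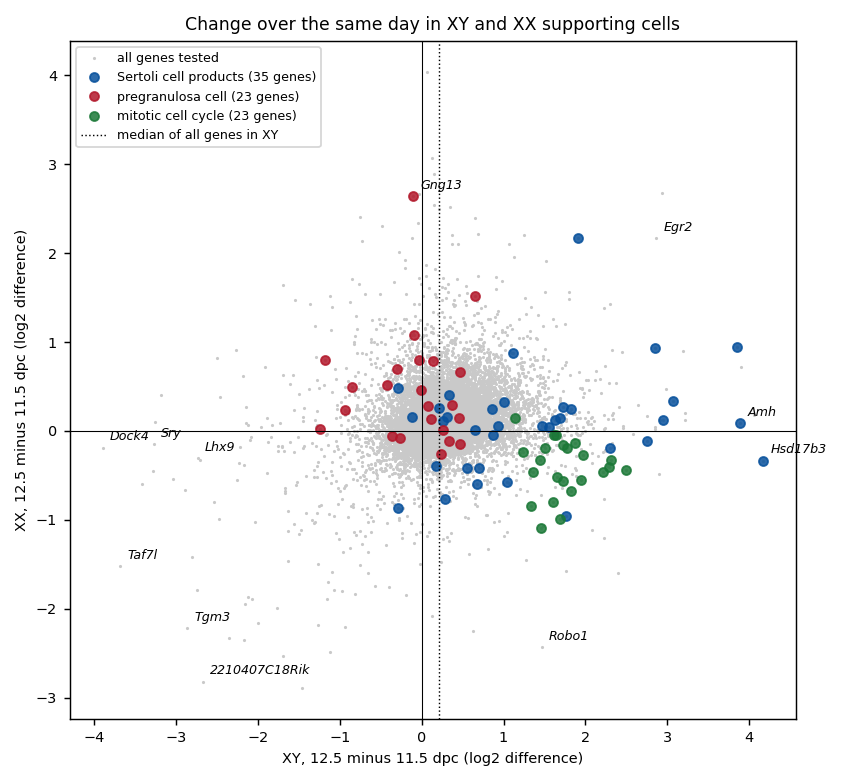
Difference between 12.5 and 11.5 dpc in XX cells (vertical axis, log2) against that in XY cells (horizontal axis, log2) for the 19938 genes tested, with 3 gene lists in colour and a dotted line at the XY median of all genes (0.21). Sertoli products and mitotic genes spread to the right. In XX the mitotic genes lie near or below 0, and the Sertoli products have a median of 0.11, with Gstm6 at 2.17. Pregranulosa genes centre near 0 in XY and reach upward in XX, and Robo1 lies at lower right.

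Genes that moved the same way in both sexes give changes seen also where the reporter line did not change. Taf7l fell in XX cells by 1.52 (padj = 0.00635), from between 9.97 and 10.04 to between 7.91 and 8.95. Tgm3 fell by 2.22 (padj = 2.4e-08), Nup62cl by 1.79 (padj = 9.4e-06), 2210407C18Rik by 2.82 (padj = 2.4e-08) and Dclk1, a microtubule kinase that fell in XY by 2.48 (padj = 2.63e-09), by 1.00 (padj = 0.0222). The rises in both sexes were led by Egr2, an immediate early factor, with an XY difference of 2.87 (padj = 1.85e-05) and an XX difference of 2.17 (padj = 0.00345). Bche, the butyrylcholinesterase, rose by 2.30 and 1.42 (padj = 2.09e-06 and 0.00814), Gstm6 by 1.91 and 2.17, the pseudogene Gpr137b-ps by 1.80 and 1.49 (padj = 0.000114 and 0.00537) and the secreted protease Htra1 by 1.79 and 1.56 (padj = 5.27e-05 and 0.00127). The sex difference of the change passed for Taf7l (-2.16, padj = 0.00406) and Dclk1 (-1.48, padj = 0.00939), and not for the other 8 of these 10 genes.

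The microRNA gene Mir18 belongs to the cluster on chromosome 14 that also holds Mir17, Mir19a, Mir20a and Mir19b-1, all cut from the transcript Mir17hg. The mature products are shown to set out which members of the cluster share a seed. They are taken from RefSeq (GRCm38.p6), with the seed, bases 2 to 8, in capitals. miR-17-5p and miR-20a-5p share a seed, as do miR-19a-3p and miR-19b-3p, while that of miR-18a-5p is its own.
miR-17-5p: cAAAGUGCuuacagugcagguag
miR-20a-5p: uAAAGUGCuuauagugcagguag
miR-18a-5p: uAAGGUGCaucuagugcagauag
miR-19a-3p: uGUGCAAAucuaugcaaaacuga
miR-19b-3p: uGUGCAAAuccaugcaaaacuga

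Mir18 read 7.17, 6.41 and 7.39 at 11.5 dpc and 5.60, 5.73 and 5.004 at 12.5 dpc in XY cells (-1.55, SE 0.32, padj = 0.000905), and 4.89 to 5.25 and then 6.05 to 7.42 in XX cells (1.48, padj = 0.00634). The probe set thus moved in opposite directions, without overlap of stages in either sex. Mir17, named after its values were seen like the remaining cluster members, read 6.63, 6.01 and 6.57 and then 4.74, 5.20 and 5.14 (-1.37, SE 0.24, padj = 0.000149), with a sex difference of -1.85 (padj = 0.000794). Mir20a, which shares the seed of miR-17-5p, differed by -0.29 (padj = 0.61), Mir19a by 0.13 (padj = 0.738), Mir19b-1 by -0.23 (padj = 0.699) and the host transcript Mir17hg by 0.14 (padj = 0.768). No test compared the members with each other. In the 6 XY arrays Mir19a read 3.75 to 4.32 and Mir20a 4.47 to 5.33, low levels at which it was not tested whether a fall could be read. Over the 296 microRNA genes measured, 6 rose and 3 fell, against 9.72% and 0.968% of all genes, with a median of 0.13 against 0.21. The arrays were hybridised from total RNA, and whether a probe set reads the mature form, the hairpin or the host transcript was not tested.

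Markers of other cell types and of handling were read beside these results, with 9.72% higher and 0.968% lower of all genes as the background for each count. For counts at an unadjusted p under 0.05 by limma the background was 4781 of all 19938 genes. Germ cell markers had 0 of 15 members past the test (0 also at an unadjusted p under 0.05), and their median level was 5.71 to 6.03 in the 11.5 dpc arrays and 5.99 to 6.07 in those of 12.5 dpc. The shared spread includes the germ cell arrays, and the SE was 0.76 for Ddx4 and 0.71 for Dazl. For such genes the test could detect only large changes. Ddx4, Dazl and Pou5f1, which define germ cells, read at most 5.25 at 11.5 dpc and at most 5.86 at 12.5 dpc. Endothelial markers (0 of 12 past the test, 2 at an unadjusted p under 0.05) had median levels of 6.11 to 6.25 and then 6.12 to 6.67. Macrophage markers (0 of 12, and 1) had median levels of 5.83 to 6.17 and then 5.70 to 5.99. Of 14 stromal markers 2 rose (Ptch1, and Postn by 1.31, padj = 0.0117, or 0.0669 aligned) and 2 fell (Lhx9 and Pdgfra), with median levels of 7.002 to 7.31 and then 7.01 to 7.47. Nr2f2, a defining factor of interstitial cells, read 8.39, 8.59 and 8.18 and then 6.95, 7.38 and 7.12, a difference of -1.23 (padj = 0.0777) with no overlap, while Tcf21 and Dcn differed by 0.23 (padj = 0.861) and -0.25 (padj = 0.761). Nr2f2 passed with arrays centred (padj = 0.0454) and after quantile normalisation (padj = 0.0235). Among these values that of Nr2f2 lay lower together with Lhx9, Pdgfra, Cdh11 and Igf1, while the median level of the stromal list did not, and the part of interstitial cells in those falls was not tested. In sorted pools, fewer cells of a type and less RNA per cell cannot be told apart.

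Steroidogenic markers had 2 rises, Nr4a1 (1.96, padj = 3.44e-07) and Hsd3b1 (0.68, padj = 0.0274), and 1 fall, the side-chain cleavage enzyme Cyp11a1 (-0.98, padj = 0.0052), which also fell in XX cells (-1.80, padj = 5.88e-06), among 7 measured. Hsd3b1 read low, 4.87 to 5.10 and then 5.43 to 5.87. Its call was kept in 2 of 6 fits without an XY array and lost with arrays centred. Among 7 erythroid markers only Alas2, the haem synthesis enzyme, rose (0.92, padj = 0.00185), and the embryonic globin Hbb-y varied from 7.52 to 11.56 with overlapping stages. Of 12 mesonephric and epithelial markers the keratins Krt8 (1.33, padj = 0.000808) and Krt18 (0.88, padj = 0.033) rose and Emx2 fell, and Krt8 also rose in XX cells (1.13, padj = 0.0189). Of 18 genes that respond to tissue dissociation 5 rose and 0 fell, against 9.72% of all genes higher, namely Egr2, Nr4a1, Egr1, Ier3 (0.75, padj = 0.0336) and Junb (0.69, padj = 0.0334). Ier3 and Junb were each kept in 1 of 6 fits without an XY array. With arrays centred only 2 of the 18 rose, Egr2 and Nr4a1, against 989 of all 19938 genes. In XX cells 1 of the 18 rose, against 1.05% of all genes. The list median there was 0.35, against 0.26 in XY cells. Egr1 is also counted among the FGF targets, and whether handling contributes there was not tested. Of 13 candidate genes for variation between strains 0 passed (2 at an unadjusted p under 0.05), among them Nnt, which is disrupted in some C57BL/6 substrains and differed by 0.17 (padj = 0.702). Of 10 measured genes of X inactivation or the Y chromosome, a list without Sry, 0 passed (4 at an unadjusted p under 0.05). Over all genes 4781 of 19938 had an unadjusted p under 0.05.

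**Figure D4:**
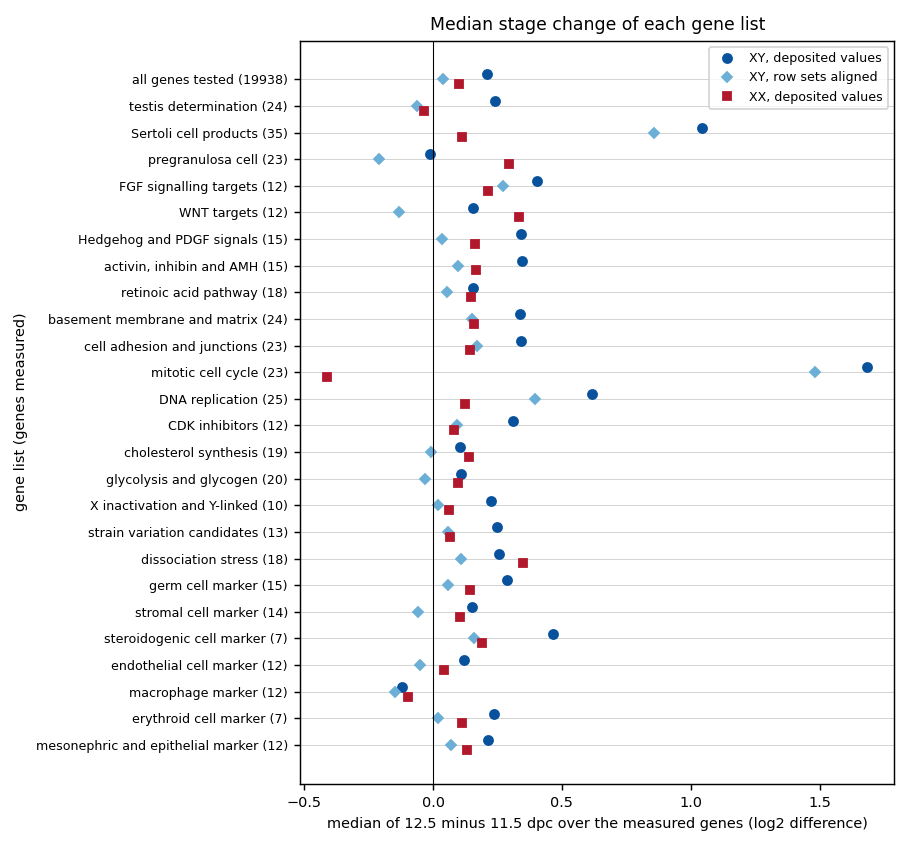
Median difference between 12.5 and 11.5 dpc (horizontal axis, log2) over the measured genes of each list (vertical axis, number of genes in brackets), for XY cells as deposited (circles) and with row sets aligned (diamonds) and for XX cells (squares). Mitotic genes (1.69) and Sertoli cell products (1.04) stand to the right of all genes tested (0.21) in XY cells, while the XX median of mitotic genes is -0.41.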

How the data were processed

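RNA of flow-sorted gonadal cells (200 ng) was measured on Mouse Gene 1.0 ST arrays of Affymetrix. The authors deposited log2 values for probe sets. The submitters' processing notes name RMA; its version was not found in the labels. Of 35557 probe sets, 21789 had 1 gene symbol in the platform annotation. The probe set with the highest mean stood for each of 19938 genes, with no filter on dim genes. Table rows fell into 107 row sets (slopes 1.0099 to 1.059), and an alternative divided each by its slope and moved it to a common median.

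limma 3.58.1 in R 4.3.3 fitted 12 group means to all 36 arrays, including an XX germ cell array of 12.5 dpc (array 3) that stands apart. Its mean correlation with its group was 0.898, the lowest of the 36 arrays, against 0.970 or higher in the arrays of other groups. Contrasts were the XY change, the XX change and their difference, adjusted by Benjamini-Hochberg. The procedure was tested on simulated data. Python 3.11.15 made tables and figures.

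The 25 gene lists, the members and the tests were chosen with earlier results of these data known. Named were all members of interest from the lists (up to 6 of the larger lists, with defining markers), the 15 largest rises and falls without overlap of arrays, the 8 largest sex differences in each direction and the 5 largest changes shared by the sexes. Other genes are said to be chosen after their values were seen. Alternatives changed the arrays fitted, scaling, weights, gene filter, probe set rule, threshold, trend, replicate block and each array in turn. No batch label was used, since the sources used here give none. The number of arrays limits the precision.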

Additional observations from a re-analysis of the deposited data

Results flagged for a closer look

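The stage change differed between XY and XX supporting cells in 454 genes by limma's interaction test. Differences below are the XY change minus the XX change on the log2 scale, and each passed the test at an adjusted p under 0.05. The XX arrays share a reporter line across stages and the XY arrays do not, so line and sex cannot be told apart in these values.

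Among genes of the switch and the early gonad the difference was -3.12 for Sry, 1.82 for Ptgds, -1.75 for Fgfr2, 1.48 for Dmrt1 and -2.18 for Emx2. Among Sertoli products it was 3.81 for Amh, 4.50 for Hsd17b3, 2.91 for Defb19, 2.73 for Fgf13, 2.82 for Tesc, 1.92 for Clu, 2.87 for Vnn1 and 2.49 for Erbb3. It was 1.58 for Dhh, 1.62 for Inha, 1.12 for Inhbb, 2.72 for Cst9, 1.51 for Gdnf, 1.27 for Cyp26b1, 1.55 for Col9a3 and 1.51 for Etd.

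Mitotic and replication genes differed by 2.93 (Ccnb2), 2.64 (Bub1b), 2.69 (Cenpf), 2.68 (Tpx2), 2.50 (Mki67), 2.24 (Aurka), 1.89 (Cdk1), 2.55 (Cenpe), 2.17 (Birc5), 3.43 (Kif15) and 1.42 (Rfc4). Signalling, junction and ovarian genes differed by -1.06 (Stra6), 1.47 (Nr4a1), 2.58 (Gjb2), -1.08 (Cdh2) and -2.75 (Gng13).

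Outside the lists, the XY change was above the XX change by 3.88 in Cstdc1, 3.18 in Kazald1, 3.10 in Col14a1, 3.01 in Tmem184a, 2.30 in Prss35, 2.51 in Sfrp4, 2.79 in Tinagl1, 3.39 in Tnnc1, 3.90 in Robo1, 4.001 in H2bc4, 3.34 in Sel1l3 and 2.08 in Mir677. It was below the XX change in Dock4 (-3.71), Taf7l (-2.16), Zim1 (-2.82), Ifitm3 (-3.36), Sulf1 (-3.59), Cntnap5a (-2.50), Igf1 (-2.39), Hmcn1 (-3.33), Col12a1 (-3.18) and Dclk1 (-1.48). The same held for the small RNA genes Snora75 (-3.34), Mir18 (-3.02) and Mir17 (-1.85) and the imprinted genes Mest (-2.42) and Peg3 (-1.27).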

How the results depend on the processing

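The XY count of 2130 genes became 3961 with only the 18 supporting cell arrays, 4202 with array weights, 2951 without the XX germ cell array that stands apart, 3220 with row sets aligned, 1414 after quantile normalisation, 1130 at an adjusted p under 0.01 and 889 at a difference of 1 or more. Leaving out single XY arrays gave 1257 to 2118. The 454 sex differences became 989, 1107, 1457 and 265 (18 arrays, weights, aligned, stricter p), 784 without that germ cell array, and 332 to 554 without single arrays. The 295 XX calls became 488 with the arrays compared alone, 697 with 18 arrays, 590 without that germ cell array, 718 aligned, 1075 weighted, 195 among genes above the median level, 154 at the stricter p and 173 to 343 without single arrays. Aligning with only the 18 supporting arrays, chosen after seeing the data, gave 3218, 1500 and 867. The causes were not tested. Replicate numbers did not pair the arrays (correlations of deviations 0.0009, -0.057 and -0.0038), and the replicate block gave 2144, 461 and 293 genes.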

Other observations

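Several imprinted genes lay lower at 12.5 dpc in XY cells. They were picked after their values were seen, and no count was made over all measured imprinted genes. Igf2, the fetal growth factor, read 10.85, 10.82 and 10.54 at 11.5 dpc and 8.44, 8.45 and 8.89 at 12.5 dpc (-2.14, padj = 0.00159 by limma). Mest read 11.17, 11.07 and 10.86 and then 8.97, 8.44 and 9.23 (-2.15, padj = 0.000852), and Peg3 read 12.71, 12.62 and 12.56 and then 10.89, 11.33 and 11.36 (-1.43, padj = 3.49e-05). The XX differences were 0.08, 0.27 and -0.16 (padj = 0.998, 0.993 and 0.987), and the sex difference passed for Mest (padj = 0.0242) and Peg3 (padj = 0.0243) and not for Igf2 (padj = 0.0648). Cdkn1c, a maternally expressed inhibitor of the cell cycle, differed by -0.85 (padj = 0.125). Its stages did not overlap, and it passed as a fall in 5 of 10 alternative fits. The imprinted gene Zim1, named above among the largest falls, differed by -3.42 (padj = 3.89e-05). Whether the falls of imprinted genes depend on the parent of origin was not tested.

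Another 2 microRNA genes were also picked after their values were seen. Mir677 read 6.72, 7.37 and 5.66 and then 8.01, 7.84 and 9.003 in XY cells (1.70, padj = 0.000413), with an XX difference of -0.39 (padj = 0.936) and a sex difference that passed (2.08, padj = 0.00574). Mir202, a gonadal microRNA, differed by 0.12 in XY cells (padj = 0.912) with widely spread arrays (4.27 to 7.07 at 11.5 dpc) and fell by 2.08 in XX cells (padj = 0.0159). Its sex difference of 2.20 did not pass (padj = 0.0936).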
